A study of Mus musculus with 18 samples.

Results

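The interferon-induced GTPases described here are 10 mouse genes of 2 families, the guanylate-binding proteins Gbp2, Gbp3, Gbp4, Gbp5, Gbp7, Gbp8 and Gbp9 and the immunity-related GTPases Irgm1, Igtp and Iigp1. They were taken by symbol, as the rows of the count table whose Ensembl identifier maps to these names, and all 10 were found among 54232 rows. All 10 also passed the filter on low counts, which left 17074 genes for testing. Expression is given as CPM, each gene's counts as a rate per library size after TMM normalisation (trimmed mean of M-values, a scaling of library sizes).

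RNA was sequenced from sorted DCs of C57BL/6J mice whose genotype is given as CD11a KO, the loss of the integrin chain encoded by Itgal, in 18 libraries. The 3 DC subsets were labelled CD11b+, CD103+ and Double+, and each came from the small intestinal lamina propria (LP) and from the intestinal lymph node (LN). This gave 6 groups of 3 libraries. All groups carried the same genotype, so no comparison here concerns the loss of CD11a. The labels give no age, and do not say whether cells were pooled or whether replicates came from separate mice, so p-values measure the spread between these libraries. The shared protocol text covers untreated mice and mice infected with Salmonella Typhimurium, and the sources used here do not say which applied to each library, a limit for any interferon-induced gene. That text also describes DCs from the thoracic duct, whereas the labels of these libraries name the intestinal lymph node.

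Guanylate-binding proteins (GBPs) are large GTPases that cells make in response to interferons, above all interferon gamma. They assemble on the vacuoles and surfaces of intracellular bacteria and parasites and help to trigger inflammatory caspases. Immunity-related GTPases (IRGs) act on the same vacuoles. Irgm1 and Igtp belong to the regulatory branch that guards the cell's own membranes, while Iigp1 belongs to the effector branch that loads onto the vacuole. In DCs of the intestine, which carry antigen from the lamina propria to the draining node, these genes are commonly read as a record of interferon exposure.

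The members lie in clusters (GRCm38, GENCODE vM21). Gbp5, Gbp7, Gbp3 and Gbp2 follow each other on the plus strand of chromosome 3, between bases 142493978 and 142638008. Gbp8, Gbp9 and Gbp4 share a start region on the minus strand of chromosome 5, where their gene models end between 105139539 and 105139586. Irgm1 and Igtp are on chromosome 11. Promoters (250 bases before to 50 after the start, RefSeq, GRCm38.p6) were given for 6 of the 10 members, which are Gbp2, Gbp3, Gbp5, Gbp7, Irgm1 and Igtp. The 30 bases around their interferon-stimulated response element (ISRE) type motif are shown because this motif is the textbook docking site of interferon-activated factors and is what the promoters share. Each window reads 5′ to 3′ on the gene's strand, and capitals mark the motif, which is GAAA, any 2 bases and GAAA again, or its reverse complement (TTTC, any 2 bases, TTTC).
Gbp2, chr3:142620594-142620623, plus strand: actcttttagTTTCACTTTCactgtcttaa
Gbp3, chr3:142559992-142560021, plus strand: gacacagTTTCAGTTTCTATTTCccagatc
Gbp5, chr3:142496759-142496788, plus strand: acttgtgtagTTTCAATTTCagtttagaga
Gbp7, chr3:142530273-142530302, plus strand: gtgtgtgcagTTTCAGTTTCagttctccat
Irgm1, chr11:48871428-48871457, minus strand: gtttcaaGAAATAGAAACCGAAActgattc
Igtp, chr11:58199512-58199541, plus strand: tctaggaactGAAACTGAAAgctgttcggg

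The 2 matches of Gbp3 and the 2 of Irgm1 overlap within their windows. On either strand the motif was present in the promoters of all 6 members with an entry, although 1 of the 2 promoters listed for Gbp3 lacked it, and in 1131 of 32851 mouse promoters of the same length (3.443%). The gamma-activated site (GAS) type motif TTCNNNGAA, which reads alike on both strands, was present in the promoters of Gbp5, Gbp7 and Igtp and in 8.298% of all promoters. A match describes the letters of these windows and is not evidence of a bound factor. The expression patterns below differ sharply between genes with the motif, for example between Gbp5 and Gbp7.

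The libraries held between 23574292 and 46901985 counts, with a median of 27356482. Itgal was still counted in all 18 libraries, at 6.45 to 26.6 CPM, and these gene-level counts do not show whether the reads come from outside a deleted part. Itgae, the gene of CD103, was at 1337 and 812 CPM in LP CD103+ and Double+ DCs but at 35.4 and 46.1 CPM in the LN groups of the same names. Every LN library (at most 49.1 CPM) lay below every LP library (at least 92.1), LP CD11b+ included. Itgam, the gene of CD11b, was at 20.8 CPM in LN CD11b+ and 5.16 in LN Double+ DCs, and reached 76.4 CPM in LP. The DC gene Zbtb46 was present in all groups, at means of 173 to 255 CPM. Other DC genes were lower in LN. H2-Ab1 was at 23546 to 28443 CPM in LP and 3517 to 16796 in LN libraries. Cd74 was at 36085 to 48546 and 14004 to 32119, and Itgax at 341 to 609 and 81.0 to 302. Flt3 spanned 330 to 666 CPM in LP and 425 to 1058 in LN. Xcr1, which marks the conventional type 1 DC, was at 1400 ± 9.45 CPM (SD, n = 3) in LP CD103+ DCs but at 97.6 ± 4.39 CPM in LN CD103+ DCs. The 6 type 1 markers summed to 257 to 292 CPM in LP and 939 to 1119 in LN Double+ DCs. The 5 markers of conventional type 2 DCs summed to 2522 to 3007 CPM in LP and 196 to 239 in LN Double+ DCs, and to 2195 to 3288 and 746 to 1171 in CD11b+ DCs. A shared label therefore does not show that LN and LP cells of a subset match. LN and LP libraries also differed in other transcripts. The 6 macrophage markers summed to 570 to 1329 CPM in LP CD11b+ and 270 to 302 in LP Double+ DCs. In LN they summed to 247 to 411 and 68.1 to 74.2 CPM. The 5 epithelial markers summed to 184 to 441 and 423 to 565 CPM in these LP groups. Their LN sums were 28.9 to 35.8 and 60.6 to 62.4 CPM. Other sets were higher in LN in most or all subsets. The 10 T cell markers summed to 373 to 823 CPM in LN libraries. In LP CD103+ libraries they summed to 178 to 227 CPM, where Cd8a alone reached 221. In the other LP libraries they summed to 9.96 to 40.6 CPM. No T cell marker was at 0 in every library of a group. The 6 B cell markers summed to 109 to 155, 35.9 to 38.6 and 48.5 to 57.5 CPM in LN CD11b+, CD103+ and Double+ libraries. Their LP sums were 37.7 to 44.6, 13.9 to 20.5 and 8.12 to 9.10 CPM. The natural killer (NK) cell gene Ncr1 reached 73.2 to 118 CPM in LN CD11b+ DCs and stayed under 19 CPM elsewhere. The list of 6 NK cell markers that holds Ncr1 summed to 274 to 444, 145 to 227 and 149 to 175 CPM in LN CD11b+, CD103+ and Double+ libraries. In LP it summed to 121 to 212, 156 to 170 and 27.2 to 47.0 CPM, so the tissues overlapped in CD103+ DCs. Klrk1, of the same list, spanned 24.9 to 206 CPM in LP and 91.5 to 205 in LN. The 5 markers of mature DCs, among them Ccr7, summed to 19284 to 25462 CPM in LN CD103+ and Double+ DCs, 3121 to 5217 in LN CD11b+ DCs and 714 to 2339 in LP. All LP libraries carried the male transcript Ddx3y (up to 74.4 CPM) with almost no Xist, and all LN libraries carried Xist. Of the LN libraries, CD11b+ replicate 3 and Double+ replicate 3 carried Ddx3y too, at 58.0 and 52.2 CPM. Sex and tissue therefore cannot be told apart here. The part of T cell, B cell, NK cell, macrophage, epithelial and maturation transcripts in the results below was not tested. In bulk samples, fewer cells of a type and less RNA per cell cannot be told apart either.

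Summed over the 7 GBPs, expression was 45.9 ± 5.36 CPM (mean ± SD, n = 3) in LP CD103+ DCs, 458 ± 22.9 in LP CD11b+ DCs and 680 ± 44.5 in LP Double+ DCs. In LN it was 601 ± 77.8 in CD11b+ DCs, 1094 ± 97.7 in CD103+ DCs and 1874 ± 122 in Double+ DCs. LP CD103+ DCs thus stood far below every other group, and LN Double+ DCs stood highest. The 3 IRGs varied less, with group means of their sum from 120.3 CPM in LP CD103+ DCs to 240.0 CPM in LN CD11b+ DCs.

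**Figure D1:**
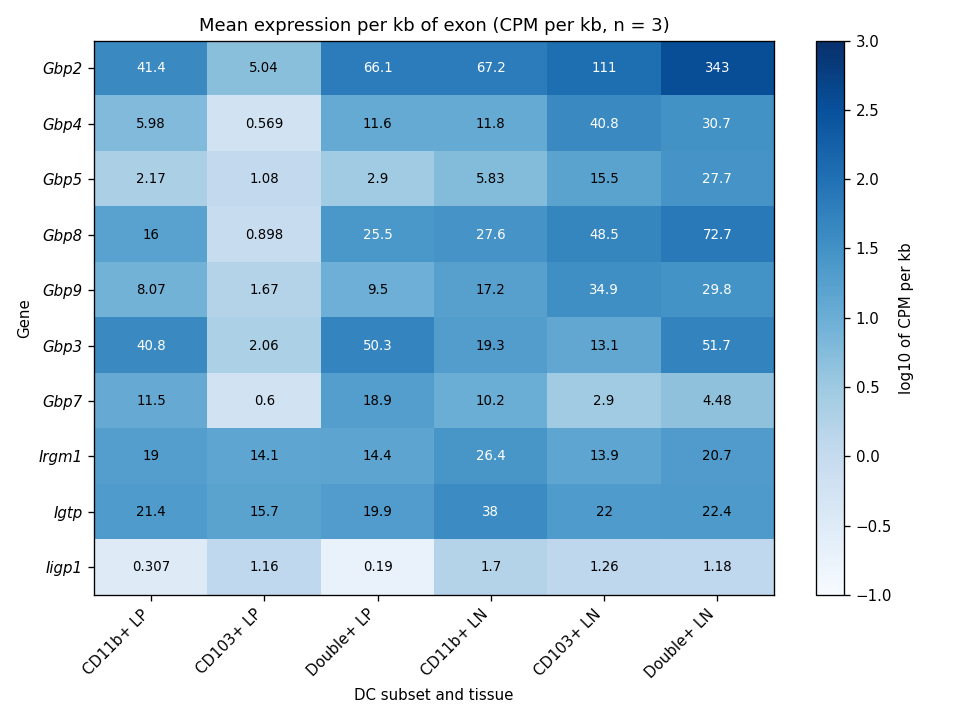
Mean expression of each gene (rows) in each DC subset and tissue (columns, 3 libraries each) as CPM per kb of exon, printed in each cell and coloured on a log10 scale. Gbp2 is the darkest row in 5 of the 6 columns, and the LP CD103+ column is pale for all 7 GBPs but not for Irgm1 and Igtp.

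Per kb of exon, the scale on which genes can be compared with each other, Gbp2 was the most abundant member in 5 of the 6 groups. Its mean level was 343 ± 28.6 CPM per kb in LN Double+ DCs, where the next member, Gbp8, was at 72.7 ± 7.11. LP CD103+ DCs were the exception, because there Igtp (15.7 ± 1.72 CPM per kb) and Irgm1 (14.1 ± 1.76) came first and Gbp2 was at 5.04 ± 1.27. Gbp4 was last in that group, at 0.569 ± 0.0919 CPM per kb. Iigp1 was the least abundant member in the other 5 groups, at 0.190 to 1.70 CPM per kb.

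**Figure D2:**
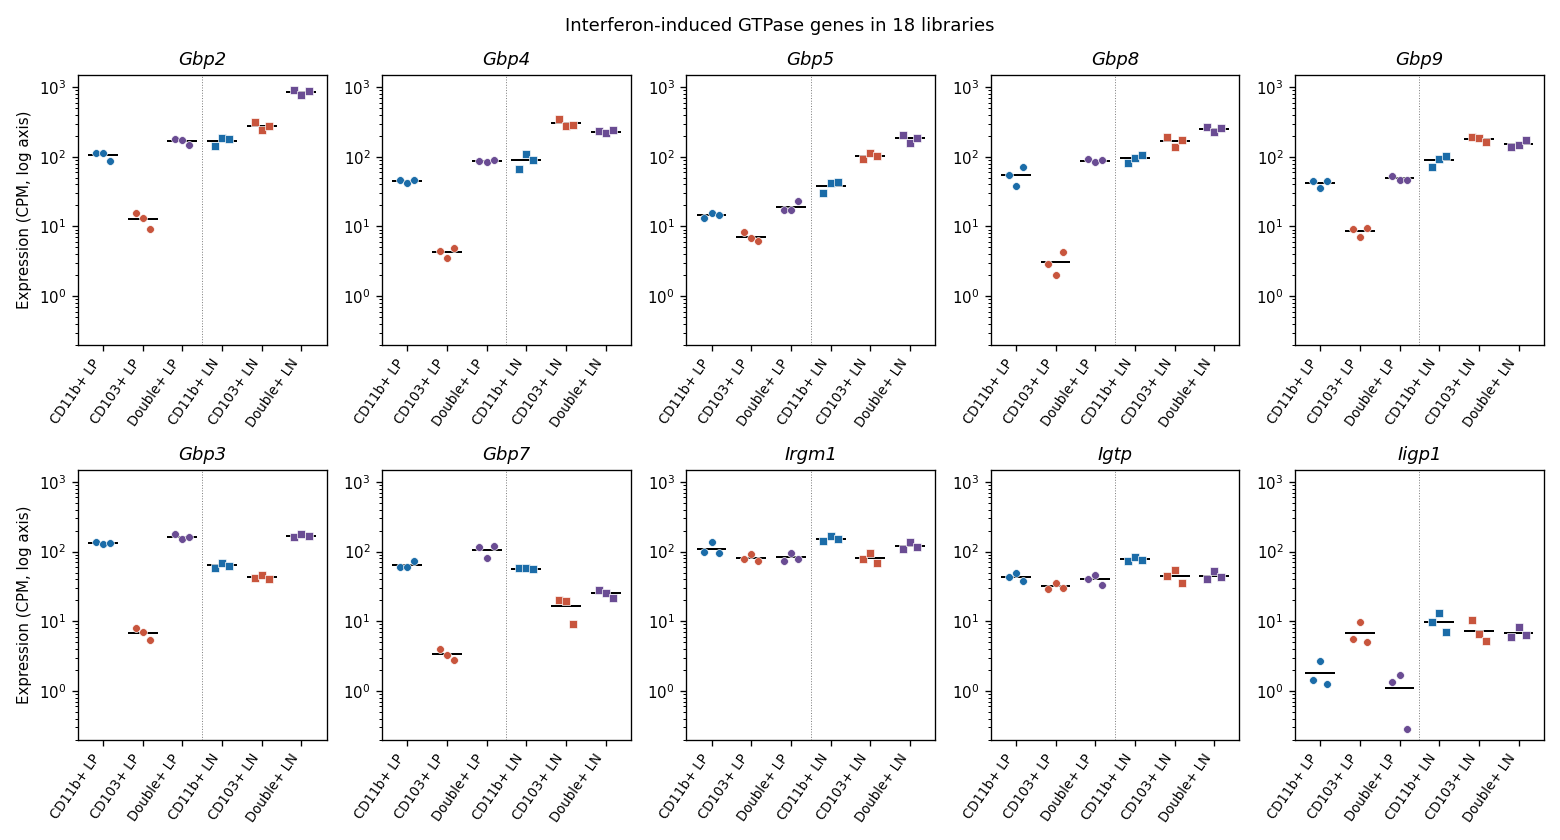
Expression of the 10 genes in each of the 18 libraries (points, circles for LP and squares for LN) by DC subset and tissue, in CPM on a log axis, with the mean of 3 libraries as a line. The 5 GBPs of the upper row climb from LP to LN, Gbp3 and Gbp7 climb in CD103+ DCs only, and Irgm1 and Igtp are nearly level.

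Comparing LN with LP within each subset asks how these genes differ between DCs of the same label in the gut wall and in the node. A gene was called higher or lower at a Benjamini-Hochberg adjusted p under 0.01 in edgeR's quasi-likelihood test and a fold change over 2. In CD103+ DCs 7 of the 10 members were higher in LN, beside 19.8% of all genes tested, and 0 were lower, beside 15.1%. At an unadjusted p under 0.05 edgeR also placed 0 members lower there, and DESeq2 called 0. In Double+ DCs 6 members were higher (18.6% of all genes) and 1 was lower (13.6%). In CD11b+ DCs 3 were higher (10.3%) and 1 was lower (4.93%). The median log2 fold change of the members was 3.25 in CD103+ DCs, 1.46 in Double+ DCs and 0.81 in CD11b+ DCs, beside medians of 0.04, 0.07 and 0.03 over all genes.

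Of the chromosome 5 cluster of Gbp4, Gbp8 and Gbp9, the first 2 had the largest log2 fold changes of the members in CD103+ DCs. In LP, Gbp4 was at 46.1, 42.2 and 46.0 CPM in the CD11b+ libraries, 4.42, 3.51 and 4.85 in the CD103+ libraries and 87.1, 84.4 and 89.5 in the Double+ libraries. The LN values were 67.7, 109 and 89.3 CPM in CD11b+, 352, 280.4 and 285 in CD103+ and 233, 217 and 239 in Double+ libraries. Every LN library lay above every LP library of its own subset, and CD103+ DCs moved from the lowest place to the highest. Gbp4 rose with a log2 fold change of 6.18 ± 0.18 (SE) in CD103+ DCs (adjusted p = 1.18e-13) and of 1.40 ± 0.14 in Double+ DCs (adjusted p = 2.14e-07). The value in CD11b+ DCs, 0.99 ± 0.14, fell just short of the fold limit and passed it without LP CD11b+ replicate 1, LP CD11b+ replicate 3 (1.00 for both) or LN CD11b+ replicate 1 (1.14).

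Gbp8, unlike Gbp4, had its highest mean in LN Double+ DCs. In LP it was at 55.5, 37.6 and 72.2 CPM in CD11b+, 2.87, 2.04 and 4.37 in CD103+ and 91.7, 82.9 and 88.4 in Double+ libraries. In LN, expression was 82.3, 96.3 and 107 CPM in CD11b+, 193, 137 and 172 in CD103+ and 271, 223 and 257 in Double+ libraries. LN and LP libraries of a subset did not overlap, although the spread among LP CD11b+ libraries was wide. Its log2 fold change was 5.80 ± 0.27 in CD103+ DCs (adjusted p = 1.61e-11), 1.51 ± 0.22 in Double+ DCs (adjusted p = 1.26e-05) and 0.79 ± 0.21 in CD11b+ DCs, where the fold limit was passed only without LP CD11b+ replicate 3 (1.03).

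Gbp9 was at 44.3, 36.2 and 44.7 CPM in LP CD11b+ libraries, 9.13, 7.12 and 9.63 in LP CD103+ libraries and 53.5, 46.8 and 47.0 in LP Double+ libraries. The LN values were 71.8, 94.1 and 101 CPM in CD11b+, 189, 187 and 165 in CD103+ and 138, 149.7 and 174 in Double+ libraries. All 9 LN libraries therefore exceeded all 9 LP libraries. Gbp9 rose in all 3 subsets, with log2 fold changes of 4.40 ± 0.16 in CD103+, 1.65 ± 0.14 in Double+ and 1.09 ± 0.14 in CD11b+ DCs (adjusted p = 9.58e-06). The CD11b+ call sat close to the fold limit, and without the mixed libraries LN CD11b+ replicate 3 and LN Double+ replicate 3 the value was 0.99. Leaving out LP CD11b+ replicate 2 (0.999) or LN CD11b+ replicate 3 (0.986) alone also ended that call. The 3 genes share a start region and some sequence. Of the 75-base windows in their transcripts, 3.084% for Gbp4, 8.042% for Gbp8 and 3.608% for Gbp9 also occur in other genes, mostly in each other or in Gbp10, Gbp11 and Gbp6, so a small share of their counts is uncertain.

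Gbp2 and Gbp5, both prenylated GBPs that anchor to membranes, were highest in LN Double+ DCs. Gbp2 was at 112, 113 and 87.8 CPM in LP CD11b+, 15.5, 13.4 and 9.22 in LP CD103+ and 178, 172 and 149 in LP Double+ libraries. In LN it was at 143, 183 and 181 CPM in CD11b+, 317, 245 and 274 in CD103+ and 919, 781 and 886 in Double+ libraries. LN Double+ DCs stood apart from all other groups, and the LN CD11b+ and LP Double+ groups overlapped. Gbp2 rose by a log2 fold change of 4.45 ± 0.18 in CD103+ DCs (adjusted p = 3.02e-12) and 2.37 ± 0.16 in Double+ DCs (adjusted p = 2.43e-09). The CD11b+ value, 0.70 ± 0.16 (adjusted p = 0.0021), did not reach the fold limit.

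Gbp5, which has been linked to assembly of the Nlrp3 inflammasome, was low throughout LP. It was at 13.1, 15.4 and 14.8 CPM in CD11b+, 8.31, 6.90 and 6.28 in CD103+ and 17.4, 17.0 and 23.3 in Double+ libraries. The LN values were 29.8, 42.6 and 43.7 CPM in CD11b+, 92.4, 113 and 104 in CD103+ and 205, 159 and 187 in Double+ libraries. All 9 LN libraries exceeded all 9 LP libraries. The log2 fold changes were 3.84 ± 0.18 in CD103+, 3.25 ± 0.17 in Double+ and 1.42 ± 0.16 in CD11b+ DCs (adjusted p = 3.19e-06), so that Gbp5 rose in every subset and, unlike the chromosome 5 genes, nearly as much in Double+ as in CD103+ DCs.

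Gbp3 and Gbp7 did not share this pattern. Gbp3 was at 139, 127 and 134 CPM in LP CD11b+, 7.89, 7.01 and 5.30 in LP CD103+ and 180.1, 151 and 161 in LP Double+ libraries. In LN, expression was 58.8, 67.6 and 63.0 CPM in CD11b+, 41.7, 45.4 and 40.9 in CD103+ and 164, 178 and 165 in Double+ libraries. Double+ libraries of the tissues overlapped, whereas LN CD11b+ libraries lay at under 70 CPM and LP CD11b+ libraries at over 120 CPM. Gbp3 rose in CD103+ DCs (log2 fold change 2.66 ± 0.12, adjusted p = 6.70e-12) and fell by 1.08 ± 0.10 on the log2 scale in CD11b+ DCs (adjusted p = 6.34e-07). In Double+ DCs the value was 0.04 ± 0.10, with a 95% interval from -0.18 to 0.26. With total counts in place of TMM scaling, which moves the median of all genes in CD11b+ DCs by 0.14, the CD11b+ value of -0.94 missed the fold limit.

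Gbp7, a GBP linked to assembly of the phagocyte oxidase, was at 60.4, 60.0 and 72.7 CPM in LP CD11b+, 4.00, 3.29 and 2.82 in LP CD103+ and 115, 81.0 and 121 in LP Double+ libraries. In LN it was at 57.5, 58.2 and 55.5 CPM in CD11b+, 20.4, 19.4 and 9.07 in CD103+ and 28.4, 25.5 and 21.6 in Double+ libraries. The tissues overlapped in no subset, but LN was above LP in CD103+ DCs and below it in the other subsets. Gbp7 rose in CD103+ DCs (2.27 ± 0.25, adjusted p = 6.41e-07) and fell by 2.07 ± 0.23 on the log2 scale in Double+ DCs (adjusted p = 7.25e-07). In CD11b+ DCs the value was -0.17 ± 0.22, with a 95% interval from -0.64 to 0.29. An annotated transcript model on the same strand, Gm43802, covers 11.347% of Gbp7 exon bases, so reads there cannot be given to one of them.

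Irgm1, Igtp and Iigp1 behaved differently from the GBPs. Irgm1 was at 99.5, 137 and 95.6 CPM in LP CD11b+, 79.1, 93.2 and 73.4 in LP CD103+ and 74.4, 96.4 and 79.5 in LP Double+ libraries. The LN values were 142, 167 and 150.4 CPM in CD11b+, 77.8, 94.8 and 69.6 in CD103+ and 109, 136 and 115 in Double+ libraries. CD103+ libraries of the tissues overlapped, and in the other subsets LN lay above LP. The log2 fold change was 0.47 ± 0.15 in CD11b+, -0.02 ± 0.15 in CD103+ and 0.53 ± 0.15 in Double+ DCs, and none was called. The sign in CD103+ DCs flipped to 0.01 with DESeq2 scaling, which is within the error.

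Igtp, also known as Irgm3, was at 43.3, 49.5 and 37.2 CPM in LP CD11b+, 29.1, 35.6 and 30.2 in LP CD103+ and 41.0, 46.5 and 33.5 in LP Double+ libraries. In LN, expression was 72.5, 83.6 and 74.7 CPM in CD11b+, 44.1, 54.4 and 35.1 in CD103+ and 40.0, 53.2 and 42.6 in Double+ libraries. Only the CD11b+ groups were separated between tissues. The log2 fold changes were 0.83 ± 0.16 (adjusted p = 7.01e-04), 0.49 ± 0.16 and 0.17 ± 0.16 in CD11b+, CD103+ and Double+ DCs, all under the fold limit. Of its exon bases 8.012% overlap Irgm2 on the same strand.

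Iigp1 (chromosome 18, bases 60376027 to 60392634) was scarce, with 8 to 447 counts per library. In LP it was at 1.44, 2.67 and 1.26 CPM in CD11b+, 5.59, 9.61 and 5.06 in CD103+ and 1.34, 1.69 and 0.286 in Double+ libraries. In LN it was at 9.62, 13.1 and 7.03 CPM in CD11b+, 10.3, 6.49 and 5.22 in CD103+ and 5.94, 8.27 and 6.32 in Double+ libraries. It was the only member whose LP level was highest in CD103+ DCs. Iigp1 rose in CD11b+ DCs (2.47 ± 0.48, adjusted p = 6.74e-04) and Double+ DCs (2.62 ± 0.49, adjusted p = 2.17e-04). In CD103+ DCs the value was 0.11 ± 0.45, with a 95% interval from -0.84 to 1.07.

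**Figure D3:**
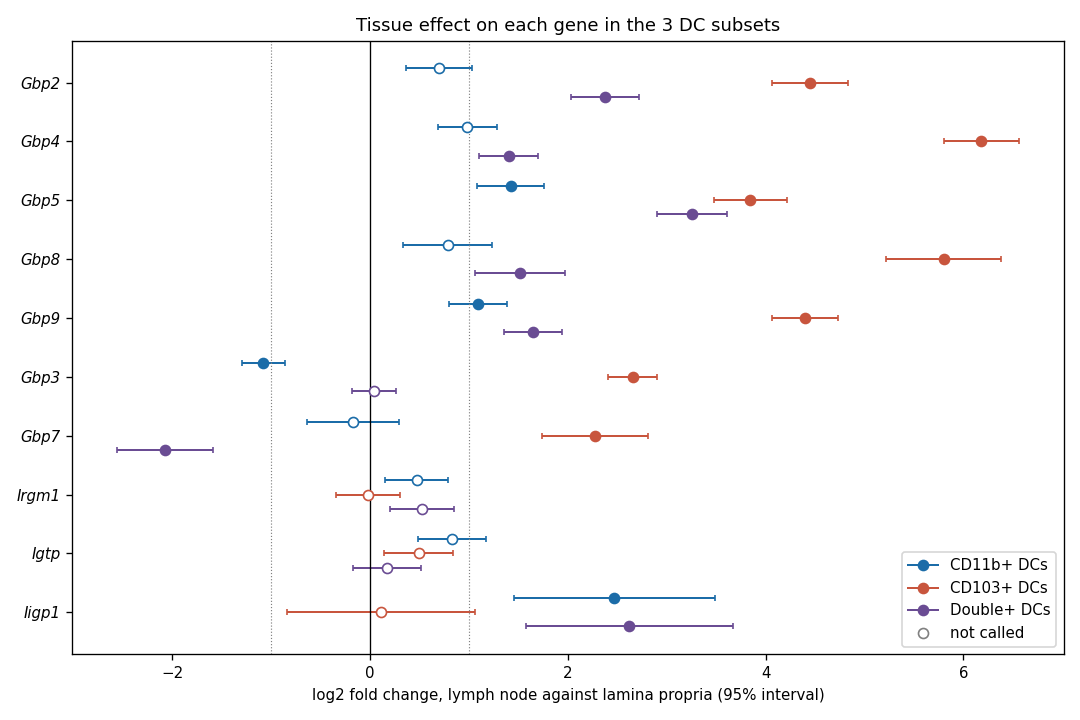
The log2 fold change of LN against LP for each gene in CD11b+, CD103+ and Double+ DCs, with 95% intervals. Filled points were called at an adjusted p under 0.01 and a fold over 2 (dotted lines), open points were not, and the CD103+ points of the 7 GBPs lie to the right of the other 2 subsets.

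Whether the tissue effect differed between subsets was tested directly, with an F test on the interaction of tissue and subset. It differed for 8 of the 10 members, beside 31.5% of all genes tested, with adjusted p from 7.02e-11 for Gbp4 to 0.00714 for Iigp1. For Irgm1 (0.0786) and Igtp (0.0707) it was not called. Both were called with total counts in place of TMM scaling (0.00767 and 0.00541) and with a replicate block (8.66e-04 and 0.00289). All 7 GBPs had a larger tissue effect in CD103+ than in CD11b+ DCs at an adjusted p under 0.01 (27.2% of all genes differ between these subsets). That difference was 5.20 ± 0.22 on the log2 scale for Gbp4, 5.02 ± 0.33 for Gbp8 and 2.42 ± 0.23 for Gbp5. Between Double+ and CD103+ DCs the tissue effect was smaller in Double+ DCs for 6 GBPs (13.1% of all genes), by 4.78 ± 0.21 for Gbp4 at the most. For Gbp5 the difference was -0.59 ± 0.22, with a 95% interval from -1.07 to -0.11 and an adjusted p of 0.0736. Between Double+ and CD11b+ DCs it was larger in Double+ DCs for Gbp2, Gbp3 and Gbp5 and smaller for Gbp7 (18.7% of all genes). The F test call for Iigp1 was lost without any one of 9 libraries. The adjusted p was 0.027 without LP CD103+ replicate 2, 0.0246 without LN CD103+ replicate 3 and 0.0223 without LN CD103+ replicate 2. It was 0.0101 to 0.0123 without LP CD11b+ replicate 1, LP CD103+ replicate 1, LN CD11b+ replicate 1 or 2, or LN Double+ replicate 2 or 3.

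Within LP, the subsets were compared with each other. Against CD11b+ DCs, CD103+ DCs had 7 members lower, beside 10.6% of all genes, and 1 higher, beside 5.07%. The 7 were the GBPs. Gbp3 was 19.7-fold lower (log2 fold change -4.30 ± 0.12), Gbp7 19.1-fold, Gbp8 18.4-fold, Gbp4 10.6-fold, Gbp2 8.18-fold and Gbp9 4.87-fold lower. Gbp5 stood at the fold limit, at 2.01-fold lower (log2 fold change -1.01), and its call was lost without LP CD11b+ replicate 2 or 3, LP CD103+ replicate 2 or 3, or any one LN CD11b+ library (log2 values of -0.98 to -0.90). The member that was higher was Iigp1, 3.79-fold (adjusted p = 0.00407), a call that was lost without LP CD11b+ replicate 1 (log2 value 1.81), LP CD11b+ replicate 3 (1.75) or LP CD103+ replicate 2 (1.57).

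Double+ and CD11b+ DCs of LP differed by less than the fold limit for each member. Their GBP sums did not overlap, at 635 to 724 CPM in Double+ and 432 to 472 in CD11b+ DCs. Of the 10 members 0 were called higher and 0 lower by edgeR, and DESeq2 also called 0. That count lay near the share of all genes, 1.14% higher and 3.67% lower. At an unadjusted p under 0.05, 6 members were higher and 1 was lower. The largest difference was that of Gbp4, at 1.94-fold higher in Double+ DCs (log2 0.96 ± 0.14, adjusted p = 1.95e-04). Against CD103+ DCs, Double+ DCs had 7 members higher (8.1% of all genes) and 1 lower (5.52%), again the 7 GBPs and Iigp1. Gbp7 was 31.3-fold higher there, and Iigp1 was 6.09-fold lower.

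Within LN the order of the subsets changed. CD103+ DCs had 3 members higher than CD11b+ DCs, beside 10.2% of all genes, and 1 lower, beside 15.6%. Those higher were Gbp4 (3.45-fold), Gbp5 (2.67-fold) and Gbp9 (2.03-fold), and Gbp7 was 3.50-fold lower. The Gbp9 call was lost without any LP CD11b+ library, LP CD103+ replicate 3, LN CD11b+ replicate 1, or LN CD103+ replicate 1 or 2 (log2 values of 0.852 to 0.987). Irgm1, at -0.92, passed the fold limit without LN CD11b+ replicate 1 (-1.01) or LN CD103+ replicate 2 (-1.07). The scaling bears on this comparison, since total counts move the median of all genes by -0.43 and leave only Gbp4 higher, with Gbp7, Irgm1 and Igtp lower. Double+ DCs had 5 members higher than CD11b+ DCs (6.92% of all genes), of which Gbp2 was 5.10-fold and Gbp5 4.76-fold higher, and 1 lower (9.82%), Gbp7, at 2.27-fold. Double+ against CD103+ DCs gave 2 higher, Gbp3 (3.95-fold) and Gbp2 (3.09-fold), beside 4.69% of all genes. By edgeR and by DESeq2, 0 members were lower (1.84% of all genes), while 1 was lower at an unadjusted p under 0.05.

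Ordering the 6 group means of each member showed which neighbours were separated by the test (adjusted p under 0.01, no fold limit). Gbp2, Gbp5 and Gbp8 were highest in LN Double+ DCs, Gbp4 and Gbp9 in LN CD103+ DCs, Gbp7 in LP Double+ DCs, and Irgm1, Igtp and Iigp1 in LN CD11b+ DCs. The top of the order was separated from its neighbour for Gbp2 (adjusted p = 1.32e-06) and Gbp5 (6.53e-04), where LN Double+ stood over LN CD103+ DCs (15.4% of all genes differ between these groups). It was also separated for Igtp (0.00104), where LN CD11b+ stood over LN Double+ DCs (32.3% of all genes differ). For Gbp3, whose highest mean was also LN Double+, the second group, LP Double+, was not separated from LN Double+ above it or LP CD11b+ below it. LP CD103+ DCs held the lowest place for all 7 GBPs and were separated from the next group for each. That group was LP CD11b+ for 5 of them (26% of all genes differ) and LN CD103+ for Gbp3 and Gbp7 (51.7% of all genes differ). No pair of neighbours was separated for Irgm1.

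**Figure D4:**
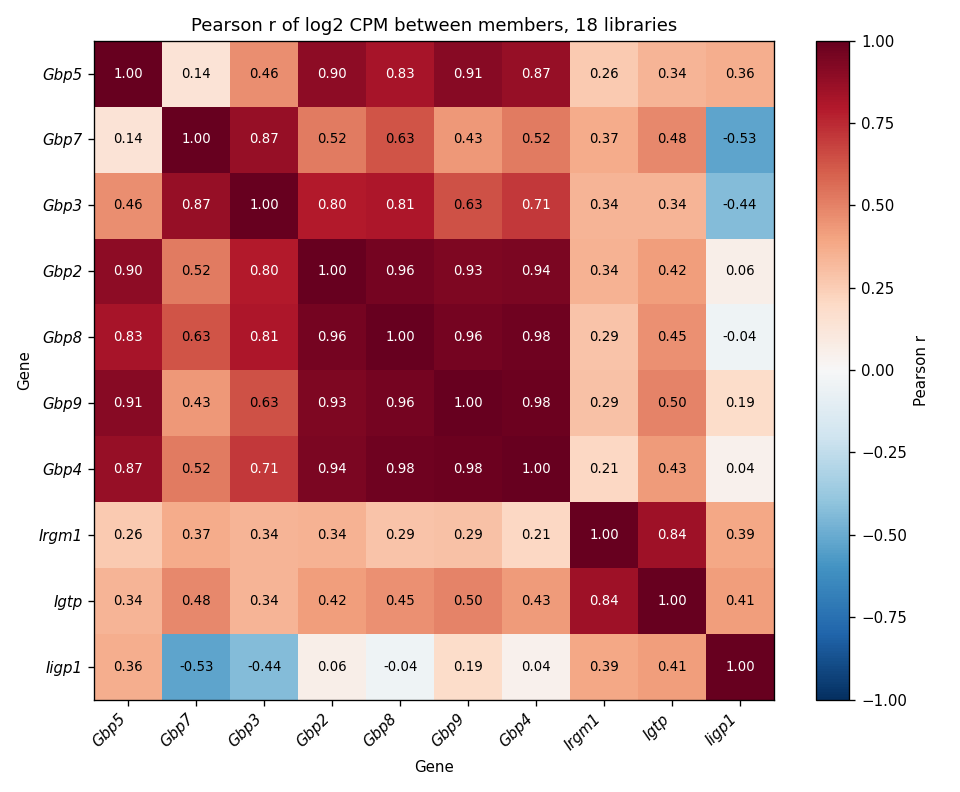
Pearson r of log2 CPM between each pair of members over 18 libraries, ordered by genomic position. Gbp8, Gbp9 and Gbp4 form a dark block at 0.96 to 0.98, while Gbp5 and Gbp7, neighbours on chromosome 3, stand at 0.14.

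Across the 18 libraries, which share 6 groups and are therefore not independent points, the members fell into sets that only in part followed their position. As a description, Pearson r of log2 CPM was 0.957 to 0.982 for the 3 pairs on chromosome 5. On chromosome 3 the 6 pairs ranged from 0.140, for Gbp5 and Gbp7, to 0.897, for Gbp2 and Gbp5. Gbp3 and Gbp7 stood at 0.868 with each other, and Irgm1 and Igtp at 0.844. The 35 pairs on different chromosomes had a median of 0.415 and reached 0.957 for Gbp2 and Gbp8, as high as the lowest pair of chromosome 5. Over the members' scaled mean, the gene with the most similar pattern among 8660 candidates was Zbp1, an interferon-induced sensor of nucleic acids (r = 0.976), followed by Peg13 (0.973) and St6galnac6 (0.961). For single members the most similar gene was Vopp1 for Gbp2 (r = 0.992), Upb1 for Gbp3 (0.982), Galnt1 for Gbp5 (0.992) and Pecam1 for Gbp7 (0.967). It was Arhgef3 for Gbp8 (0.987), Clec2i for Gbp9 (0.986), Calhm2 for Irgm1 (0.892), Shisa5 for Igtp (0.926) and Snap47 for Iigp1 (0.934). Stat4, which encodes a signal transducer of interleukin 12 and interferons, came first for Gbp4 (0.983). The 5 most similar genes also included Stat4 for Gbp2 (0.968). They included Usp18, an interferon-induced brake on interferon signalling, for Gbp5 (0.988), Casp1 for Gbp3 (0.976), and Cmpk2 (0.904) and Dhx58 (0.893) for Igtp. These were named for their known roles, not their rank. Pgap2 (0.990) and Map3k14 (0.989) ranked above Usp18, and Bhlhe40 (0.979) and Smox (0.978) above Casp1. Arl4c was among the 5 for Gbp2 (0.976), Gbp4 (0.971) and Gbp8 (0.971), and Hlx for Gbp4 (0.980) and Gbp9 (0.985).

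**Figure D5:**
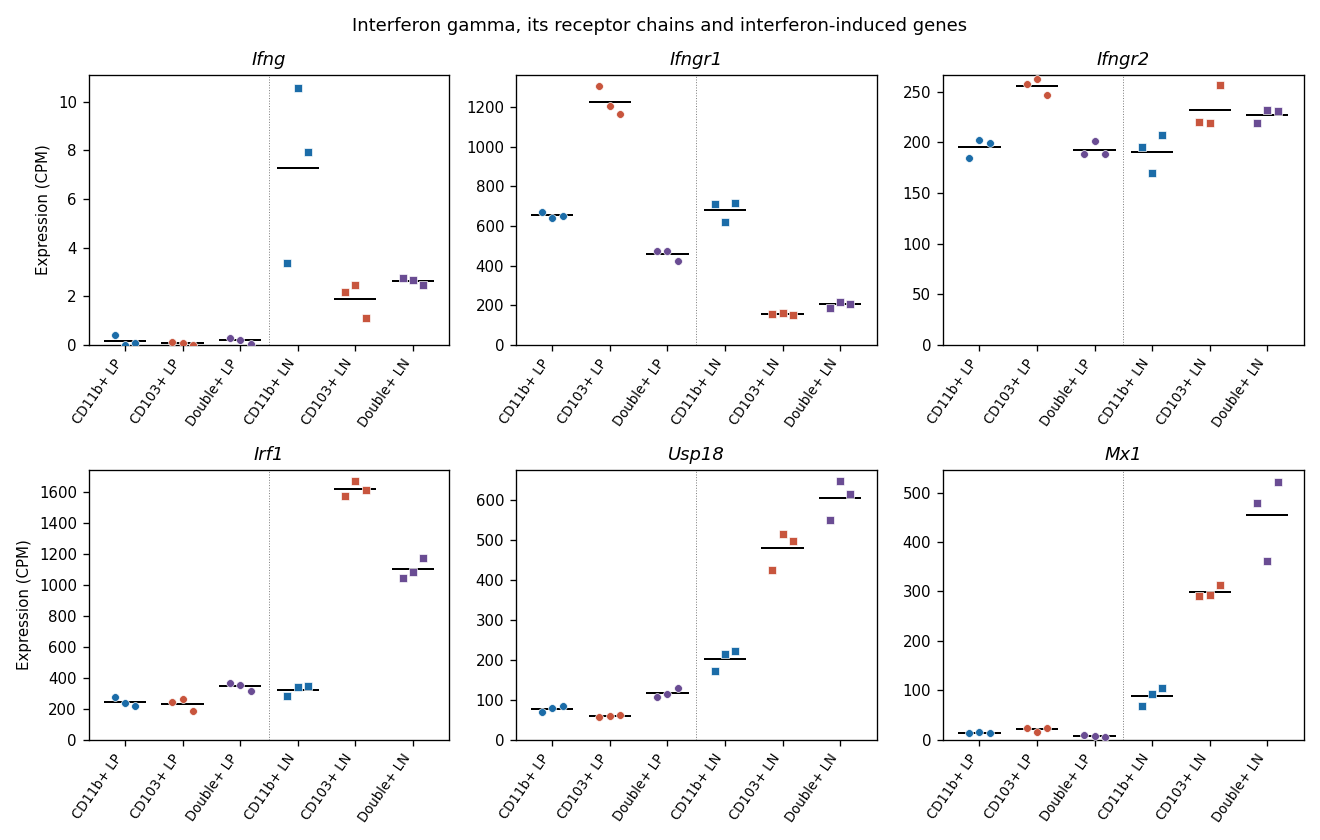
Expression of Ifng, both chains of its receptor, Irf1, Usp18 and Mx1 in each library (points, circles for LP and squares for LN), in CPM on linear axes from 0, with the mean of 3 libraries as a line. Ifngr1 is lowest and Irf1, Usp18 and Mx1 are high in LN CD103+ and Double+ DCs.

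The genes upstream of the GTPases were described from lists of the pathway. Of the ligands and receptors, 9 of 10 genes passed the filter. In CD103+ DCs 3 of these were higher in LN and 2 lower, in Double+ DCs 3 and 1, and in CD11b+ DCs 1 and 0 (0 lower also at an unadjusted p under 0.05 and by DESeq2). Over all genes tested 19.8%, 18.6% and 10.3% were higher and 15.1%, 13.6% and 4.93% were lower in these subsets. The CD11b+ counts and the lower count in Double+ DCs lay near those shares. Ifng, the gene of interferon gamma, was at 0 to 0.395 CPM in the 9 LP libraries. The LN values were 3.35, 10.6 and 7.93 CPM in CD11b+, 2.16, 2.45 and 1.10 in CD103+ and 2.73, 2.69 and 2.47 in Double+ libraries. All LN libraries exceeded all LP libraries, and the change was called in each subset, with a log2 fold change of 5.45 ± 0.80 in CD11b+ DCs that rests on few LP counts. T cells and NK cells can make Ifng. The T cell marker sum and Ncr1 given above were also higher in LN than in LP, although the NK marker sum overlapped in CD103+ DCs. Which cells of these sorted libraries carried the marker transcripts was not tested. Among LN groups, Ncr1 and Ifng were both highest in CD11b+ DCs. The median T cell sum was highest in CD103+ DCs (812 CPM), where Ifng was lowest. The part of T cells and NK cells in the Ifng values was not tested either.

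Ifngr1, the ligand-binding chain of the receptor, went the other way. It was at 1304, 1205 and 1162 CPM in LP CD103+ libraries and at 155, 159 and 151 CPM in LN CD103+ libraries. It fell by 2.98 ± 0.09 on the log2 scale in CD103+ DCs (adjusted p = 1.19e-13) and by 1.17 ± 0.08 in Double+ DCs, and was 0.06 ± 0.08 in CD11b+ DCs. LP CD103+ DCs, the group lowest in GBPs, thus had the highest Ifngr1 level. Ifngr2, the signalling partner chain, was at 170 to 262 CPM throughout, with log2 fold changes from -0.14 to 0.24 and no call.

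Of 14 signalling and induction genes, 4, 6 and 9 were higher in LN in CD11b+, CD103+ and Double+ DCs, and 1 was lower in each. Over all genes tested 10.3%, 19.8% and 18.6% were higher and 4.93%, 15.1% and 13.6% were lower in these subsets, so the lower counts lay near or below the share of all genes. Irf1, the factor that drives many GBP genes, rose from 232 ± 40.3 to 1620.3 ± 49.8 CPM (n = 3) in CD103+ DCs (log2 fold change 2.80 ± 0.13) and by 1.68 ± 0.12 in Double+ DCs. In CD11b+ DCs its value was 0.41 ± 0.12. Usp18 rose in all 3 subsets, from a mean of 59.8 to 479 CPM in CD103+ DCs, and by a log2 fold change of 2.37 ± 0.11 in Double+ DCs and 1.38 ± 0.11 in CD11b+ DCs. Socs1, a feedback inhibitor, also rose in all 3. Socs3, another feedback inhibitor of this list, had a median of 337 CPM (13.3 to 631) over LP libraries and 61.4 CPM (29.9 to 127) over LN libraries. Irf8, a DC lineage factor, fell by 1.53 ± 0.09 in CD103+ DCs and rose by 3.04 ± 0.10 in Double+ DCs. Within LP, Irf1 did not follow the GBPs, since CD103+ against CD11b+ DCs gave -0.07 ± 0.12, with both groups near 240 CPM.

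Of 18 related GTPase genes, 5 were higher in LN in each subset, and 1, 2 and 3 were lower in CD11b+, CD103+ and Double+ DCs. Over all genes tested 10.3%, 19.8% and 18.6% were higher and 4.93%, 15.1% and 13.6% were lower. The lower counts, and the higher counts in CD103+ and Double+ DCs, lay near those shares. Mx1, an antiviral GTPase induced by type I and III interferons, rose the most of those with at least 10 CPM, by 5.94 ± 0.23 in Double+, 3.83 ± 0.21 in CD103+ and 2.70 ± 0.20 in CD11b+ DCs. Gbp2b, the chromosome 3 neighbour of Gbp2, rose by 2.20 ± 0.34 in CD103+ DCs and fell by 1.68 ± 0.30 in CD11b+ DCs, as Gbp3 did. The interferon-inducible Tgtp1 was called higher in all 3 subsets, but 77.226% of its 75-base windows also occur in other genes, mostly Tgtp2, and its value is uncertain. Interaction of tissue and subset was called for 5 of the 18, near the share of 31.5% over all genes tested.

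Genes that work with the GTPases were described in the same way. Of 10 genes of ATG8 conjugation, the machinery that guides IRGs and GBPs to vacuoles, 5 were higher in LN CD103+ DCs, 3 in LN Double+ DCs and 0 in LN CD11b+ DCs, and 0 were lower in any subset. Over all genes tested 19.8%, 18.6% and 10.3% were higher and 15.1%, 13.6% and 4.93% were lower in these subsets. In CD11b+ DCs 3 were higher and 4 lower at an unadjusted p under 0.05, the lower counts at that p were 1 in CD103+ and 3 in Double+ DCs, and DESeq2 gave the same counts of calls. Gabarapl1 led, with log2 fold changes of 3.12 ± 0.09 in CD103+ and 1.17 ± 0.08 in Double+ DCs. Of 6 genes of CaaX processing, which attach and trim the lipid anchor of prenylated GBPs, 0 were called between tissues by edgeR or DESeq2, beside the same shares. At an unadjusted p under 0.05 there were 1, 3 and 5 in CD11b+, CD103+ and Double+ DCs. Of 8 inflammasome genes, on which GBPs act, 4 were higher and 1 lower in LN CD103+ DCs, 2 were higher and 3 lower in LN Double+ DCs, and 1 was higher and 2 lower in LN CD11b+ DCs, beside the shares of all genes given above. Casp4, the sensor of cytosolic lipopolysaccharide, rose by 4.10 ± 0.22 in CD103+, 2.04 ± 0.20 in Double+ and 1.01 ± 0.19 in CD11b+ DCs, where DESeq2 called 0 genes of this list higher. Nlrp3, an inflammasome sensor, went the other way and fell by 1.41, 4.72 and 5.15 on the log2 scale in CD11b+, CD103+ and Double+ DCs. In LP, 6 of the 8 were lower in CD103+ than in CD11b+ DCs (10.6% of all genes), among them Il1b (log2 fold change -5.29), Casp4 (-2.22) and Casp1 (-2.10).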

How the data were processed

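The measurement was RNA-seq of 18 sorted DC libraries (Smart-seq v4, read length 75 bases). The deposited values are raw counts per gene, which the authors made from aligned reads without normalisation. The submitters' processing notes name FastQC 0.11.7, STAR 2.6 and GRCm38. The counting tool, its strand setting and its annotation release are not given in the sources used here, so reads from overlapping or near-identical genes may have been split or dropped. Identifiers were matched to GENCODE vM21 (54079 of 54232).

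Counts were filtered with filterByExpr (17074 genes kept), scaled by TMM and tested in edgeR 4.0.16 (R 4.3.3) with 1 quasi-likelihood fit of 6 group means. Called means a Benjamini-Hochberg adjusted p under 0.01 over all genes tested and a fold over 2, with no fold limit for interactions. SEs came from the F statistic. CPM per kb used the union of exons. Likeness used genes with a mean of at least 10 CPM. The script was tested on simulated data. Alternatives were other scalings, filters, thresholds and DESeq2 1.42.0, the 6 libraries compared alone, replicate blocks, each library left out, and both mixed LN replicate 3 libraries left out.

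Replicate numbers come from the titles. Same-numbered LP libraries deviated together in CD103+ against CD11b+ (r = 0.136 to 0.196) and Double+ against CD103+ DCs (0.109 to 0.176). In LP Double+ against CD11b+ DCs replicates 1 (0.200) and 3 (0.234) did so, but not replicate 2 (0.063). In LN CD103+ against CD11b+ (0.029 to 0.063) and Double+ against CD103+ DCs (0.015 to 0.052) values were smaller, though above those of other numbers. In LN Double+ against CD11b+ DCs replicate 3, the mixed libraries, stood at 0.116 and replicate 2 at 0.037. Replicate 1 (0.027) lay below another number (0.033). The reported tests used no pairing, and replicate blocks were run only as alternatives. No pair of replicates agreed within sampling noise (chi-square per gene of 14.9 or more), so none was merged as a repeat deposit of 1 library. This does not show that they came from separate mice.

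Named from the pathway lists were Ifng, Ifngr1, Ifngr2 and Irf1, and called genes with the largest changes among those with at least 10 CPM in the higher group. A further gene that the rule names is not reported here. Members and lists were chosen with earlier results of these data known. No column of another series was present.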

Additional observations from a re-analysis of the deposited data

Results flagged for a closer look

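The difference between LN and LP itself differed between CD11b+, CD103+ and Double+ DCs for 8 of the 10 members, by the F test on the interaction of tissue and subset in edgeR (adjusted over all genes tested). The adjusted p was 7.02e-11 for Gbp4, 1.98e-10 for Gbp3, 5.26e-09 for Gbp9, 1.21e-08 for Gbp2, 1.47e-08 for Gbp8, 1.58e-07 for Gbp7, 7.11e-07 for Gbp5 and 0.00714 for Iigp1. In all 7 GBPs the log2 fold change was highest in CD103+ DCs. For Gbp5 it was not separated from that in Double+ DCs (3.84 and 3.25, adjusted p = 0.0736 in edgeR's quasi-likelihood test of the interaction). Gbp7 moved in opposite directions, with a log2 fold change of 2.27 in CD103+ and -2.07 in Double+ DCs, and so did Gbp3, with 2.66 in CD103+ and -1.08 in CD11b+ DCs.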

How the results depend on the processing

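Of the counts of members called, 192 of 201 values under other settings stayed within 1.5 times of the reported count, and 336 of 342 did so with 1 library left out. Of the single-member values, 1270 of 1320 and 2268 of 2340 kept direction and side of the threshold. With total counts in place of TMM, 0 members were lower in LN CD11b+ DCs, LN CD103+ against CD11b+ DCs gave 1 higher and 3 lower, and LN Double+ against CD11b+ DCs gave 2 lower. With no limit on the fold change, 7 members were higher in LN CD11b+ DCs, 2 were higher in LP Double+ against CD11b+ DCs, 5 higher and 4 lower in LN CD103+ against CD11b+ DCs, and 2 lower in LN Double+ against CD11b+ DCs. With 1 library left out, 2 to 5 members were higher in LN CD11b+ DCs (2 without LP CD11b+ replicate 2, 5 without LP CD11b+ replicate 3), 0 to 1 higher in LP CD103+ against CD11b+ DCs and 1 to 2 lower in LN CD103+ against CD11b+ DCs.

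Values that changed sign were all small and uncalled. Irgm1 between tissues in CD103+ DCs was 0.0142 with DESeq2 size factors, 0.0145 with DESeq2 and -0.17 to 0.083 with 1 library left out. Under total counts the tissue effect was -0.10 for Iigp1 in CD103+ DCs, -0.13 for Gbp3 in Double+ DCs and -0.0059 for Igtp in Double+ DCs, and the Double+ minus CD11b+ difference was -0.26 for Irgm1 and -0.17 for Iigp1. With 1 library left out, those of Irgm1 and Iigp1 spanned -0.15 to 0.17 and -0.30 to 0.60, Iigp1 in CD103+ DCs -0.23 to 0.46 and Gbp3 in Double+ DCs -0.017 to 0.11. Igtp spanned -0.22 to 0.015 in LP Double+ against CD11b+ DCs and -0.12 to 0.20 in LN Double+ against CD103+ DCs, Iigp1 -0.29 to 0.23 in the latter, and Irgm1 -0.092 to 0.13 in LP Double+ against CD103+ DCs.

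The replicate block changed no count of members called in the 9 pairwise comparisons, for example 7 higher and 0 lower in LN CD103+ DCs. It brought Irgm1 (adjusted p = 8.66e-04) and Igtp (0.00289) past the F test, so that 10 members were called. The replicate numbers were not shown to pair the libraries there. The tissue effect of Iigp1 in CD103+ minus CD11b+ DCs (-2.35) missed the threshold with DESeq2 size factors (adjusted p = 0.0101) and without any one of 12 libraries, and without both mixed-sex LN replicate 3 libraries (0.0113), as did its F test (0.0118). Its 8 to 447 counts limit its precision. For the other changes of call the cause was not tested.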

Other observations

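Among the IRGs, replicate 2 was the highest of the 3 libraries in every group for Irgm1 and Igtp (6 of 6 groups) and in 5 of 6 groups for Iigp1. For the 7 GBPs it was the highest in 0 to 3 of the 6 groups. This was looked for after the values had been seen. Over all genes, replicate 2 was the highest in all 6 groups for 41 of 17074 (0.24%), beside 35 for replicate 1 and 62 for replicate 3. The 41 include further genes known to be induced by interferon, chosen here after their values were seen. Replicate 2 exceeded the mean of the other libraries of its group by 0.49 on the log2 scale for Ifit1, 0.52 for Ly6a, 0.31 for Zbp1, 0.23 for Daxx and 0.20 for Sp100, beside 0.32 for Irgm1 and 0.32 for Igtp. What the replicate 2 libraries share beyond their number is not given by the labels, and was not tested.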
